A study of Oryza sativa with 12 samples.

Results

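The response of wild-type rice seed to salt was followed in 6 RNA-seq libraries, 3 from seed kept in 300 mM NaCl and 3 from seed kept in water. The seed was of Zhonghua 11, a japonica cultivar that served as the wild type (WT), and the labels give the tissue as seed. Both groups had been disinfected with ethanol and hypochlorite and were set on wet filter paper at a constant temperature under a daily cycle of light and dark. The series also holds 3 salt and 3 water libraries of an OsMFT1 knockout (osmft1), 12 libraries in all, which enter here only where the WT response is set beside that of the mutant. The labels give no sampling time and no stage, so a delay in germination and a response of cells to salt cannot be told apart. Nor do they tie each library to its own seed lot, so the p-values measure how far libraries of a group lie apart, a spread that may be technical.

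Each library lists an abundance scaled by gene length and library size (FPKM, fragments per kilobase and megafragment) for 35204 gene IDs, and 20236 of these reached 1 FPKM in at least 3 of the 6 libraries. The library totals, recovered from the steps between low values, ran from 14463981 to 15688593 reads. The files carry no gene names. Genes were found by their published loci in the Rice Annotation Project (RAP) system, and a name was kept where the RefSeq gene table of another rice assembly places the same name on the same chromosome and in the same order along it. Of 359 name and locus pairs in 33 families, 280 passed, and 227 of these 280 members reached the abundance filter. Of those tested, 16 members stayed under 1 FPKM in every salt library and 7 in every water library, so they passed only through the group in which they were high.

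A rice grain leaves dormancy when it takes up water and the hormone balance turns from abscisic acid to gibberellin. Abscisic acid bound to its receptors blocks the clade A PP2C phosphatases, which frees SnRK2 kinases (SAPK in rice) to activate bZIP transcription factors and, with the B3 factor VP1, the genes of late embryogenesis abundant (LEA) proteins that protect dry cells. Gibberellin acts through its receptor GID1 and the F-box protein GID2 to remove the DELLA repressor SLR1, after which the factor GAMYB switches on alpha-amylases in the aleurone and scutellum. The sugar released feeds cell expansion, which needs water channels and wall-loosening expansins, and then cell division in the shoot and root.

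In salt most tested genes of LEA proteins, clade A PP2C phosphatases, dormancy regulators and heat shock proteins rose, and most tested Aux/IAA genes, type A cytokinin response regulators and plasma membrane water channels fell. DNA replication and photosynthesis genes were lower too, many of them so low in salt that they passed the abundance filter only through water. The heat shock rise turned on single libraries. There 7 of 9 rose, but 3 without salt replicate 2, 3 without water replicate 2 and 2 without water replicate 3. Of all tested IDs, 5944 (29.4%) were higher in salt and 5758 (28.5%) were lower at an adjusted p under 0.05 in limma, 57.8% in both directions together. Among the 227 tested members 73 rose, 81 fell and 73 were not called. Without the 23 that passed the filter only through 1 group, 66 of 204 rose and 65 fell. In all, 67.8% of tested members were called in either direction, and the families differed in which direction it was. The salt and water libraries did not overlap for 34.2% of tested IDs in the higher direction and 32.1% in the lower. Called members of at least 10 FPKM were named by a rule that required no overlap, so its absence in them adds no support. All differences below are in mean log2(FPKM + 1), salt minus water, a scale that understates the change of low genes. The median difference was 0.04 over all tested IDs and -0.11 over the tested members.

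**Figure D1:**
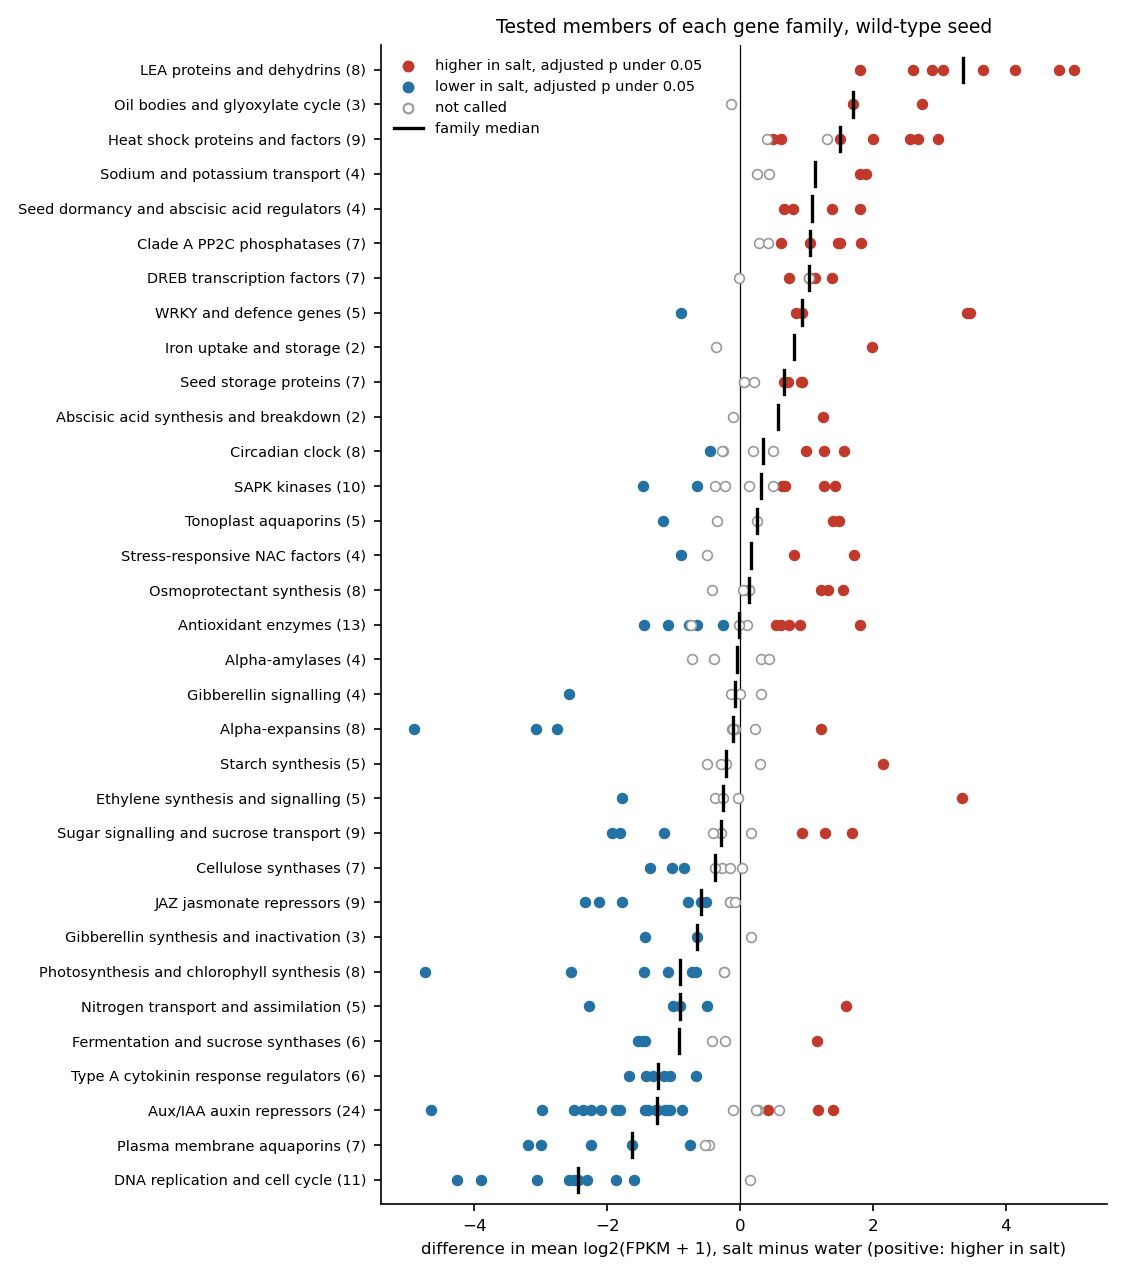
Difference in mean log2(FPKM + 1), salt minus water, of every tested member (1 point each) in the 33 families, ordered by family median (black bar), with the number tested in brackets. LEA proteins lie farthest to the right, with all 8 members called higher, and DNA replication and cell cycle genes farthest to the left, with 10 of 11 called lower, 7 of which passed the abundance filter only through water.

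Marker lists were read for the tissues the RNA could hold. Only markers whose name and locus pair was kept were read, so others were left out even where their locus had a value. Of 11 endosperm markers 7 glutelin genes and the granule-bound starch synthase Wx were kept. They summed to 19.6 to 33.3 FPKM in salt and 12.01 to 14.3 FPKM in water. Wx was at most 0.382 FPKM in any library, so these endosperm transcripts were scarce in both groups. The 4 amylase markers of aleurone and scutellum that were kept summed to 2321 to 4739.8 FPKM in salt and 4910.1 to 5271 FPKM in water. The oil body marker OLE18, the only listed oleosin that was kept, had 44.5 to 121 FPKM in salt and 5.72 to 16.2 FPKM in water. The 11 genes of the dividing tissue list summed to 75.3 to 86.9 FPKM in salt and 271 to 403 FPKM in water. Of the 7 green tissue markers 3 were kept, and they summed to 2.16 to 3.42 FPKM in salt and 59.3 to 117 FPKM in water. In whole seed, fewer cells of a type and less RNA per cell cannot be told apart, and the part of these shifts in the results below was not tested.

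Reserve genes were mixed. Alpha-amylases, which break starch down to sugar for the embryo, were not called in either direction, the most abundant narrowly. RAmy1A (Os02g0765600), the most abundant, had 1409.6, 1840.2 and 3197 FPKM in salt, against 3199.8, 3401 and 3421 FPKM in water. Salt replicate 3 stood at the level of the water libraries and the other salt libraries well under it, and the difference was -0.72 ± 0.27 (SE, limma adjusted p = 0.0551). It was called without salt replicate 3 (adjusted p = 0.00261), with a replicate block (adjusted p = 0.0395) and with a 5 FPKM filter, upper-quartile scaling, all 12 libraries or the reads in voom (adjusted p = 0.0448, 0.05, 0.0181 and 0.0287). The highest adjusted p was 0.148, without salt replicate 1, so the call turned on the settings. RAmy3E had 876, 1609.7 and 1479 FPKM in salt, against 1764, 1469 and 1816 FPKM in water, overlapping groups, and RAmy3D, which responds to sugar starvation, had 35.2, 46.6 and 61.5 FPKM in salt, against 29.6, 39.3 and 34.1 FPKM in water, overlapping as well. RAmy3A did not reach the filter, with 98 reads over the salt libraries and 19 over the water libraries.

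Of the lipid genes ICL and OLE18 rose and MS was not called. Isocitrate lyase ICL (Os07g0529000) and malate synthase MS are the enzymes particular to the glyoxylate cycle, through which stored oil is turned into sugar. ICL had 485, 421 and 538 FPKM in salt, against 124, 162 and 159 FPKM in water, and every salt library lay above every water library, a difference of 1.697 ± 0.14 (SE, limma adjusted p = 0.00011). MS had 206, 176 and 151 FPKM in salt, against 177, 248 and 164 FPKM in water, with overlapping groups and a difference of -0.13 ± 0.18 (SE, limma adjusted p = 0.568). The oleosin OLE18 (Os03g0699000), a protein of the oil body surface, had 44.5, 121 and 55.99 FPKM in salt, against 8.103, 16.2 and 5.72 FPKM in water, highest in salt replicate 2 and without overlap, a difference of 2.74 ± 0.44 (SE, limma adjusted p = 0.00159).

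Glutelins, the main storage proteins of the rice endosperm, were low throughout. GluA1, the most abundant, had 5.42, 10.7 and 6.17 FPKM in salt, against 2.96, 2.96 and 3.95 FPKM in water, a difference of 0.93 ± 0.24 (SE, limma adjusted p = 0.0132). GluA2 had 5.21, 7.697 and 4.12 FPKM in salt, against 3.22, 2.04 and 2.17 FPKM in water, a difference of 0.92 ± 0.23 (SE, limma adjusted p = 0.0116). Of 7 tested glutelins 4 rose and none fell, and at a filter of 5 FPKM only 1 was tested, which rose. GluB2, at 3.29, 5.55 and 3.52 FPKM in salt, against 2.43, 1.68 and 2.102 FPKM in water, lost its call without water replicate 2 (adjusted p = 0.0657), and GluB5 lost it without salt replicate 2, water replicate 2 or water replicate 3 (adjusted p = 0.0615, 0.0647 and 0.0842). These genes are near-identical copies whose reads the counting could have split. Among the 5 tested starch synthesis genes only starch synthase SSI (Os06g0160700) was called. It had 93.7, 98.9 and 94.02 FPKM in salt, against 23.1, 26.01 and 14.7 FPKM in water, with no overlap. This was a 4.49-fold ratio of mean FPKM and a difference of 2.15 ± 0.20 (SE, limma adjusted p = 0.000142). GBSSII, SSIIIa, BEIIa, BEIIb, AGPL1, AGPL2, AGPL3, AGPS1, PUL and PHOL were not read. Their loci were among the IDs, but their names were not in the RefSeq table. The other 4 tested starch genes were not called. AGPS2, a subunit of the enzyme that makes ADP-glucose for starch, had 3.68, 3.12 and 2.49 FPKM in salt, against 3.92, 5.92 and 4.45 FPKM in water, without overlap, a difference of -0.49 ± 0.19 (SE, limma adjusted p = 0.0568). The debranching enzyme ISA1 had 16.3, 18.3 and 14.7 FPKM in salt, against 20.98, 20.2 and 19.2 FPKM in water, also without overlap, a difference of -0.28 ± 0.12 (SE, limma adjusted p = 0.0782). Both were called lower with median-ratio scaling (adjusted p = 0.0438 for AGPS2 and 0.0348 for ISA1), and 3 starch genes were called lower with the trend of each library on gene length removed. The branching enzyme BEI had 5.46, 5.44 and 5.42 FPKM in salt, against 8.35, 6.55 and 4.89 FPKM in water, with overlap.

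Genes of the abscisic acid pathway rose at several steps. Of the synthesis and breakdown genes, zeaxanthin epoxidase ZEP (Os04g0448900), an early enzyme of synthesis, had 5.58, 7.16 and 5.499 FPKM in salt, against 1.99, 2.07 and 1.85 FPKM in water, a difference of 1.25 ± 0.15 (SE, limma adjusted p = 0.000421). NCED3, a dioxygenase of the step that commits carotenoids to abscisic acid, had 9 reads over the salt libraries and 1 over the water libraries. It could not be tested at this depth. The dioxygenases NCED1, NCED2, NCED4 and NCED5 were not read, so the step as a whole was not covered. Their loci were among the IDs, but their names were not in the RefSeq table. The breakdown enzyme ABA8ox2 had 0.755, 1.38 and 1.59 FPKM in salt, against 1.39, 1.73 and 1.08 FPKM in water, with overlap, and ABA8ox1 and ABA8ox3 had 7 and 2 reads over the salt libraries and 5 and 7 over the water libraries.

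Of 7 tested clade A PP2C phosphatases, the negative regulators of the pathway, 5 rose and none fell. The most abundant, PP2C09 (Os01g0846300), had 74.99, 51.03 and 65.02 FPKM in salt, against 26.5, 33.3 and 29.8 FPKM in water, a difference of 1.06 ± 0.16 (SE, limma adjusted p = 0.00125). PP2C51 (Os05g0572700) had 32.01, 25.7 and 39.4 FPKM in salt, against 12.2, 9.18 and 11.3 FPKM in water, a difference of 1.47 ± 0.18 (SE, limma adjusted p = 0.000464). PP2C53 had 17.3, 16.4 and 16.2 FPKM in salt, against 9.64, 10.8 and 11.2 FPKM in water, a smaller difference of 0.61 ± 0.11 (SE, limma adjusted p = 0.00276). In each of these 3 genes every salt library lay above every water library, which the rule for naming them required. PP2C06 and PP2C50 were not called, with differences of 0.29 and 0.42.

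The 10 SAPK kinases split. SAPK1 (Os03g0390200), the most abundant of the family and, like the whole family, activated by hyperosmotic stress, had 180.3, 249 and 188 FPKM in salt, against 89.7, 71.9 and 65.2 FPKM in water, a difference of 1.43 ± 0.17 (SE, limma adjusted p = 0.000389). SAPK3 had 30.00, 48.9 and 22.3 FPKM in salt, against 13.7, 12.9 and 11.6 FPKM in water, a difference of 1.27 ± 0.26 (SE, limma adjusted p = 0.00454). SAPK8, which abscisic acid also activates, had 54.1, 63.04 and 54.99 FPKM in salt, against 35.96, 40.1 and 30.9 FPKM in water, a difference of 0.68 ± 0.13 (SE, limma adjusted p = 0.00316). SAPK10 was called as well but not without salt replicate 2 (adjusted p = 0.0529) or water replicate 3 (adjusted p = 0.0641). SAPK5 (Os04g0691100) moved the other way, at 26.9, 21.6 and 21.6 FPKM in salt, against 59.96, 59.9 and 78.8 FPKM in water, a difference of -1.46 ± 0.15 (SE, limma adjusted p = 0.000229). SAPK7 had 62.4, 58.9 and 66.7 FPKM in salt, against 102, 92.5 and 102 FPKM in water, a difference of -0.65 ± 0.098 (SE, limma adjusted p = 0.00116). The family thus held 4 members that rose and 2 that fell. These are 40.0% and 20.0% of the 10 tested, against 29.4% and 28.5% of all tested IDs. The rule for naming the 5 members given with values required that their groups did not overlap.

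All 4 tested seed dormancy and abscisic acid regulators rose. The bZIP factors ABI5, bZIP46, bZIP12 and bZIP72 and the dormancy regulator Sdr4 were not read. Their loci were among the IDs, but their names were not in the RefSeq table. VP1 (Os01g0911700), the rice homologue of the Arabidopsis seed factor ABI3, had 185, 163 and 193 FPKM in salt, against 52.4, 56.6 and 43.6 FPKM in water, a 3.54-fold ratio of mean FPKM and a difference of 1.81 ± 0.13 (SE, limma adjusted p = 5.78e-05). MFT2 (Os01g0111600), a MOTHER OF FT AND TFL1 protein that acts in abscisic acid signalling in germinating rice, had 6263, 6684 and 6153 FPKM in salt, against 2529, 2217 and 2565 FPKM in water, a difference of 1.39 ± 0.11 (SE, limma adjusted p = 9.13e-05). By FPKM it ranked 7 or 8 among all IDs in each salt library and between 24 and 27 in the water libraries, and took 0.798% of summed FPKM in salt and 0.296% in water. The bZIP factors TRAB1, at 16.3, 14.1 and 15.7 FPKM in salt, against 9.05, 7.95 and 8.34 FPKM in water, and bZIP23, at 20.7, 27.2 and 19.7 FPKM in salt, against 13.96, 15.3 and 12.1 FPKM in water, differed by 0.79 and 0.66 (limma adjusted p = 0.00108 and 0.00881). MFT1 (Os06g0498800), the gene knocked out in the mutant, was at most 0.583 FPKM in any of the 6 WT libraries, 10 reads over the salt libraries and 11 over the water libraries, so no response of it was detectable at this depth.

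**Figure D2:**
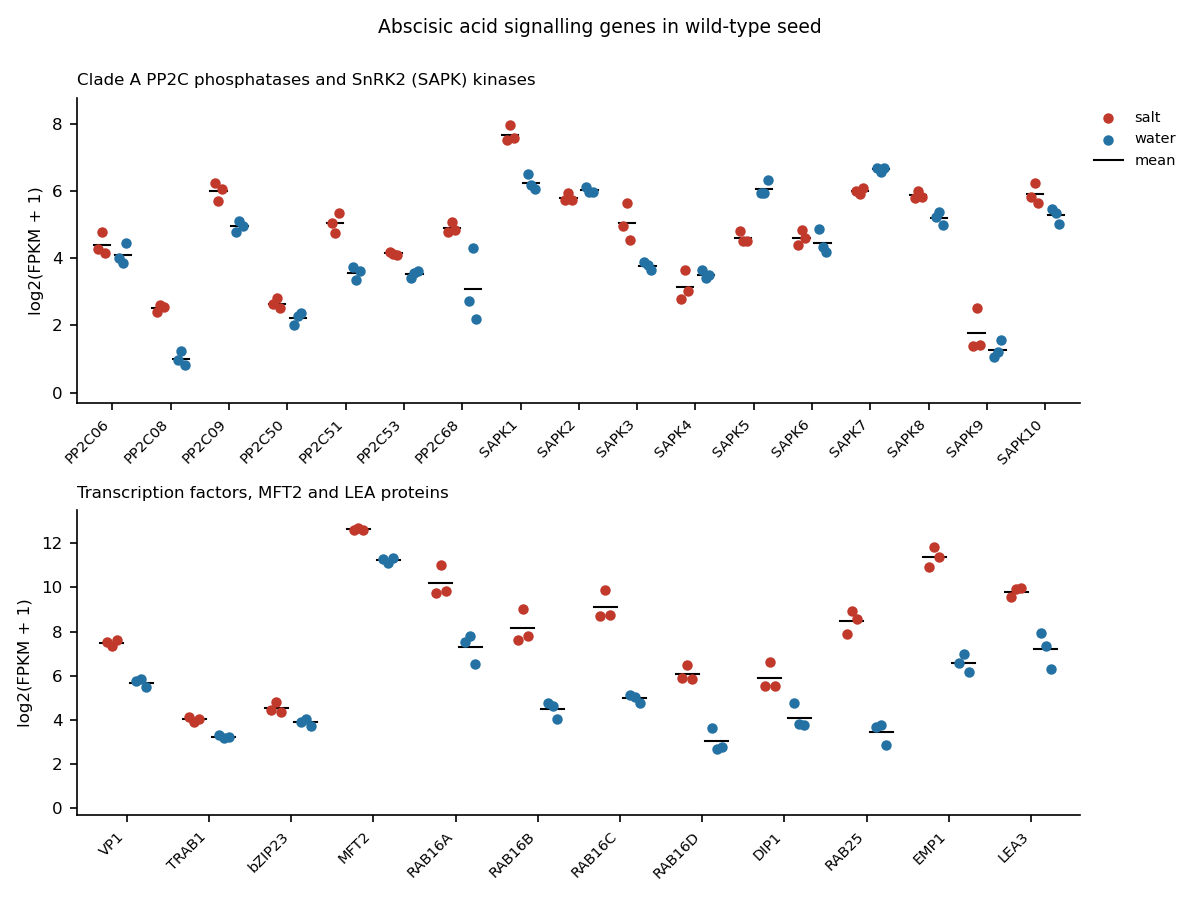
log2(FPKM + 1) of the tested PP2C, SAPK, dormancy regulator and LEA genes in each salt library (red, left) and water library (blue, right), with the mean as a bar. VP1, MFT2 and all 8 LEA genes lie higher in every salt library than in any water library, while SAPK5 and SAPK7 lie lower.

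LEA proteins and dehydrins showed the largest median difference of the 33 families, 3.36, and all 8 members rose. EMP1 (Os05g0349800), an Em-type protein of the dry embryo, had 1969.5, 3661 and 2641 FPKM in salt, against 93.1, 127 and 71.1 FPKM in water, a 28.4-fold ratio of mean FPKM and a difference of 4.81 ± 0.27 (SE, limma adjusted p = 3.6e-05). RAB25 (Os01g0702500), a dehydrin, had 234, 489 and 377 FPKM in salt, against 11.8, 12.6 and 6.15 FPKM in water, a 35.97-fold ratio and a difference of 5.03 ± 0.33 (SE, limma adjusted p = 4.82e-05). Both were low in all water libraries and high in all salt libraries, with salt replicate 2 the highest. Of the RAB16 dehydrins, RAB16C (Os11g0454000) had 419, 957 and 424 FPKM in salt, against 34.4, 31.7 and 25.9 FPKM in water, a difference of 4.14 ± 0.31 (SE, limma adjusted p = 7.41e-05). RAB16A, the most abundant of them, had 855, 2068 and 900.4 FPKM in salt, against 186, 224 and 90.98 FPKM in water, a difference of 2.897 ± 0.43 (SE, limma adjusted p = 0.00109). The 4 RAB16 genes are near-identical neighbours, so reads may be split among them, and all 4 moved the same way, by 2.897 to 4.14. The group 3 protein LEA3 had 746, 968 and 993 FPKM in salt, against 244, 159.7 and 79.1 FPKM in water, a difference of 2.61 ± 0.37 (SE, limma adjusted p = 0.000893). Summed over the family the level was 4525, 8841 and 5658 FPKM in salt, against 633, 596 and 307 FPKM in water. All 8 members kept the call when any of the 6 libraries was left out.

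Salt replicate 2 had the highest value among the salt libraries in 7 of 8 LEA genes and in 9 of 9 heat shock genes, against 40.7% of all tested IDs. Such a lead was not particular to these families. Salt replicate 2 also led in 8 of 10 SAPK genes, and salt replicate 1 led in all 8 tested expansins, against 31.9% of all tested IDs. Heat shock proteins and the HsfA2 factors that drive them refold or hold damaged proteins in dry and stressed cells. HSP101 (Os05g0519700), which pulls protein aggregates apart, had 65.6, 108 and 53.1 FPKM in salt, against 16.4, 9.81 and 6.79 FPKM in water, a difference of 2.69 ± 0.34 (SE, limma adjusted p = 0.000571). The class I small heat shock protein HSP16.9A (Os01g0136100) had 1041, 2126 and 711 FPKM in salt, against 298, 98.8 and 106 FPKM in water, a difference of 2.98 ± 0.52 (SE, limma adjusted p = 0.00221). Its near copy HSP16.9B had 171, 447 and 91.2 FPKM in salt, against 77.05, 16.98 and 23.5 FPKM in water, a difference of 2.56 ± 0.69 (SE, limma adjusted p = 0.015). Both were highest in salt replicate 2 and, within water, in water replicate 1. HSP17.4 had 223, 367 and 57.7 FPKM in salt, against 131, 45.03 and 50.7 FPKM in water, overlapping groups, and was not called (limma adjusted p = 0.14). Of 9 tested members 7 rose, but 3 without salt replicate 2, 3 without water replicate 2 and 2 without water replicate 3. HSP16.9B lost its call only without water replicate 3 (adjusted p = 0.053).

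**Figure D3:**
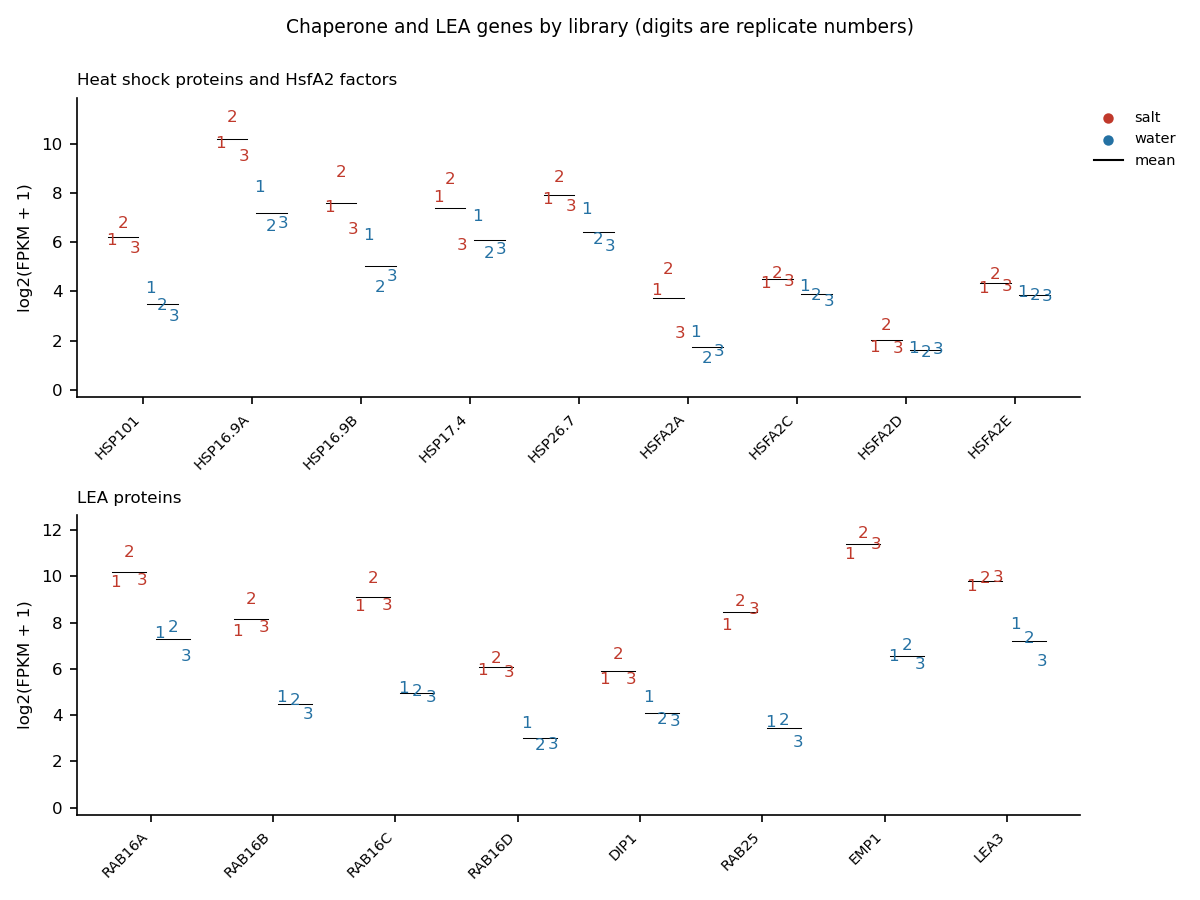
log2(FPKM + 1) of heat shock (top) and LEA genes (bottom), each digit being the replicate number of a salt library (red, left) or a water library (blue, right), with the mean as a bar. Digit 2 leads the salt libraries for all 9 heat shock genes and for 7 of 8 LEA genes, and digit 1 leads the water libraries for all 4 small heat shock proteins.

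Of the gibberellin genes 2 of 3 tested in synthesis and 1 of 4 in signalling fell, and none rose. The signalling count lies under the 28.5% of all tested IDs that were lower, and the synthesis count rests on 3 genes. KO2 and KAO, which carry out consecutive oxidation steps early in gibberellin synthesis, were both lower in salt. KAO (Os06g0110000) had 5.21, 6.39 and 7.51 FPKM in salt, against 17.6, 19.5 and 19.1 FPKM in water, a difference of -1.43 ± 0.15 (SE, limma adjusted p = 0.000222). KO2 had 8.42, 8.22 and 8.77 FPKM in salt, against 13.97, 12.9 and 14.7 FPKM in water, a difference of -0.65 ± 0.11 (SE, limma adjusted p = 0.00215). KS1, the step before KO2, had 3.85, 4.03 and 4.38 FPKM in salt, against 3.94, 3.56 and 3.14 FPKM in water, with overlap. The 20-oxidases GA20ox2 and GA20ox3 and the inactivating enzyme EUI1 stayed under 1 FPKM in all 6 libraries. The 20-oxidase GA20ox1, the 3-oxidases GA3ox1 and GA3ox2 and the 2-oxidases GA2ox1, GA2ox3, GA2ox6 and GA2ox8 were not read. Their loci were among the IDs, but their names were not in the RefSeq table.

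GID2 (Os02g0580300), the F-box protein that marks SLR1 for degradation, had 50.9, 53.7 and 51.4 FPKM in salt, against 307, 285 and 358 FPKM in water, a 6.09-fold lower mean FPKM with tight groups and a difference of -2.58 ± 0.11 (SE, limma adjusted p = 2.18e-05). Its partners in the pathway were not called. The receptor GID1 had 244, 171 and 212 FPKM in salt, against 170.0, 181 and 148 FPKM in water, the repressor SLR1 had 131, 118 and 142 FPKM in salt, against 118, 149 and 124 FPKM in water and GAMYB had 23.6, 18.1 and 18.4 FPKM in salt, against 19.8, 21.1 and 25.5 FPKM in water. The libraries of the groups overlapped for each (limma adjusted p = 0.105, 1 and 0.452).

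Sugar sensing genes that act on starch breakdown moved in opposite directions. MYBS1 and MYBS3 bind the same sugar response element of the amylase promoters, MYBS1 as an activator and MYBS3 as a repressor. MYBS1 (Os01g0524500) had 8.03, 7.47 and 8.61 FPKM in salt, against 14.9, 23.5 and 19.7 FPKM in water, a difference of -1.15 ± 0.17 (SE, limma adjusted p = 0.00118). MYBS3 (Os10g0561400) had 12.5, 15.9 and 13.3 FPKM in salt, against 3.73, 4.21 and 2.97 FPKM in water, a difference of 1.68 ± 0.16 (SE, limma adjusted p = 0.000154). CIPK15 (Os11g0113700), a kinase that links oxygen shortage to this pathway, had 2.43, 2.14 and 1.91 FPKM in salt, against 13.7, 7.62 and 12.6 FPKM in water, a difference of -1.93 ± 0.22 (SE, limma adjusted p = 0.000344). SnRK1A, the kinase between CIPK15 and MYBS1, had 29.5, 28.7 and 28.5 FPKM in salt, against 29.03, 29.3 and 19.7 FPKM in water, with overlap.

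Of the sucrose transporters SUT1 (Os03g0170900) had 189, 170.5 and 268 FPKM in salt, against 108, 117 and 97.7 FPKM in water, a difference of 0.93 ± 0.17 (SE, limma adjusted p = 0.00315). SUT2 had 92.3, 138 and 106 FPKM in salt, against 46.3, 47.8 and 41.5 FPKM in water, a difference of 1.28 ± 0.16 (SE, limma adjusted p = 0.00048). The sugar exporter SWEET11 had 5.47, 3.06 and 3.89 FPKM in salt, against 18.5, 12.7 and 19.8 FPKM in water, a difference of -1.81 ± 0.23 (SE, limma adjusted p = 0.000528), whereas SWEET15, the most abundant gene of the sugar list, had 185, 147 and 166 FPKM in salt, against 179, 195 and 304 FPKM in water, with overlap. In all 3 of 9 tested sugar genes rose and 3 fell, 33.3% each way, near the 29.4% and 28.5% of all tested IDs.

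Of 6 tested fermentation and sucrose-splitting genes 3 fell and 1 rose. The gene that rose, SUS4, passed the filter only through salt, and of the other 5 tested 3 fell and none rose. Alcohol dehydrogenase ADH1, among the most abundant transcripts of both groups, had 2677, 1963 and 2978 FPKM in salt, against 3808, 2600.3 and 2527 FPKM in water, with overlap and a difference of -0.23 ± 0.21 (SE, limma adjusted p = 0.398). Its neighbour ADH2 (Os11g0210500) had 166, 102 and 170.3 FPKM in salt, against 539, 309 and 380.2 FPKM in water, a difference of -1.48 ± 0.26 (SE, limma adjusted p = 0.00238). The sucrose synthases SUS1, at 6.61, 4.23 and 5.401 FPKM in salt, against 18.05, 13.3 and 22 FPKM in water, and SUS2, at 6.204, 2.902 and 4.604 FPKM in salt, against 15.1, 9.57 and 17.2 FPKM in water, fell by 1.54 and 1.43 on the log2 scale (limma adjusted p = 0.000825 and 0.00379). SUS4 rose, at 1.75, 2.68 and 1.29 FPKM in salt, against 0.392, 0.261 and 0.191 FPKM in water, a difference of 1.16 ± 0.21 (SE, limma adjusted p = 0.00264), from 232 reads over the salt libraries and 36 over the water libraries.

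Of the sodium and potassium genes the signalling pair rose and the transporters whose names were kept were mostly too low to test. The sodium exchangers SOS1, NHX1 and NHX2 and the potassium transporter HAK21 were not read. Their loci were among the IDs, but their names were not in the RefSeq table. CIPK24 (Os06g0606000), the SOS2 kinase, and CBL4 (Os05g0534400), the calcium sensor SOS3 that activates it, belong to the pathway that exports sodium from cells. CBL4 had 38.5, 64.7 and 43.4 FPKM in salt, against 12.1, 12.2 and 11.8 FPKM in water, a difference of 1.897 ± 0.19 (SE, limma adjusted p = 0.000201). CIPK24 had 43.9, 49.5 and 42.1 FPKM in salt, against 14.4, 12.2 and 10.1 FPKM in water, a difference of 1.81 ± 0.15 (SE, limma adjusted p = 9.2e-05), with every salt library above every water library in both genes. Of the HKT sodium transporters HKT1;1 had 3.06, 3.25 and 2.87 FPKM in salt, against 2.702, 2.36 and 2.13 FPKM in water, a difference of 0.26 ± 0.14 (SE, limma adjusted p = 0.153). The other 3 with a value stayed under 1 FPKM. The potassium transporter HAK1 had 9.17, 7.58 and 10.3 FPKM in salt, against 6.53, 7.301 and 5.401 FPKM in water, without overlap but not called (limma adjusted p = 0.0514). At a filter of 5 FPKM it was called higher. The channel AKT1 stayed under 1 FPKM.

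Plasma membrane aquaporins (PIP), the water channels of the cell surface, fell. Of 7 tested members 5 fell and none rose, and the sum over the family was 1368, 1582 and 1256 FPKM in salt, against 3480.2, 3646 and 4363 FPKM in water. PIP2;1 (Os07g0448800), the most abundant, had 698, 679.9 and 574 FPKM in salt, against 1870.3, 1906 and 2225 FPKM in water, a difference of -1.62 ± 0.12 (SE, limma adjusted p = 7.48e-05). PIP2;4 (Os07g0448100) had 53.2, 60.7 and 46.02 FPKM in salt, against 332, 401 and 595 FPKM in water, a difference of -2.996 ± 0.22 (SE, limma adjusted p = 6.34e-05). PIP2;6 (Os04g0233400) had 11.00, 13.7 and 10.4 FPKM in salt, against 89.1, 124 and 134 FPKM in water, a 9.89-fold lower mean FPKM and a difference of -3.19 ± 0.18 (SE, limma adjusted p = 3.5e-05). In these 3 genes the salt libraries lay far under all water libraries, and the rule for naming them required no overlap. PIP1;1 had 574, 777 and 579 FPKM in salt, against 1032, 1018 and 1158 FPKM in water, a smaller difference of -0.74 ± 0.14 (SE, limma adjusted p = 0.00341).

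The tonoplast aquaporins (TIP), which let water across the vacuole membrane, differed in direction. Of 5 tested members 2 rose and 1 fell, 40.0% and 20.0% against 29.4% and 28.5% of all tested IDs. TIP3;2 among those that rose passed the filter only through salt, and of the other 4 tested 1 rose and 1 fell. TIP2;2 (Os06g0336200), the most abundant, had 248, 279 and 172 FPKM in salt, against 517, 523 and 497 FPKM in water, a difference of -1.16 ± 0.18 (SE, limma adjusted p = 0.00119). TIP3;2, of a subgroup typical of seed storage vacuoles, had 2.96, 4.42 and 2.86 FPKM in salt, against 0.559, 0.646 and 0.433 FPKM in water, a difference of 1.497 ± 0.18 (SE, limma adjusted p = 0.000472). TIP4;1 had 6.96, 7.25 and 8.28 FPKM in salt, against 2.55, 2.04 and 2.11 FPKM in water, a difference of 1.395 ± 0.14 (SE, limma adjusted p = 0.000211). TIP1;1 and TIP1;2 overlapped between groups, with differences of -0.34 and 0.25.

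Expansins, which loosen the wall so that cells can grow, held some of the largest falls beside a rise. Of 8 tested members 3 fell and 1 rose, 37.5% and 12.5%, against 28.5% and 29.4% of all tested IDs. Of those that fell, EXPA1 and EXPA8 passed the filter only through water. EXPA1 (Os04g0228400) had 0.731, 0.0592 and 0.362 FPKM in salt, against 41.4, 27.98 and 54.6 FPKM in water, 19 reads over the salt libraries and 2163 over the water libraries, a difference of -4.91 ± 0.28 (SE, limma adjusted p = 3.5e-05). EXPA6 had 4.44, 3.09 and 2.56 FPKM in salt, against 21.4, 32.8 and 30.7 FPKM in water, a difference of -2.75 ± 0.22 (SE, limma adjusted p = 8.51e-05). EXPA8 had 0.31, 0.0753 and 0 FPKM in salt, against 5.85, 10.6 and 9.66 FPKM in water, a difference of -3.08 ± 0.23 (SE, limma adjusted p = 7.4e-05). EXPA3 had 0 reads in every salt library and 67 over the water libraries, which is at least 21.3-fold lower if the salt group is given a floor of 3 reads, and did not reach the filter. EXPA7 (Os03g0822000), the most abundant expansin, moved the other way, at 263, 163 and 248 FPKM in salt, against 116, 82.5 and 87.3 FPKM in water, a difference of 1.21 ± 0.21 (SE, limma adjusted p = 0.00226). EXPA2, EXPA4, EXPA5 and EXPA10 were not called, and their groups overlapped.

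Of 7 tested cellulose synthases 3 fell, 42.9% against 28.5% of all tested IDs, and none rose. CESA6 (Os07g0252400), the most abundant, had 51.6, 59.9 and 57.3 FPKM in salt, against 144, 131 and 164 FPKM in water, a difference of -1.36 ± 0.12 (SE, limma adjusted p = 0.000118). CESA8 had 26.2, 36.2 and 32.8 FPKM in salt, against 70.2, 62.7 and 61.8 FPKM in water, a difference of -1.02 ± 0.14 (SE, limma adjusted p = 0.000729). CESA3 had 45.9, 55.98 and 42.5 FPKM in salt, against 86.9, 86.8 and 84.9 FPKM in water, a difference of -0.84 ± 0.12 (SE, limma adjusted p = 0.000954). CESA1, a partner of CESA3 and CESA8 in primary walls, had 49.01, 67.8 and 58.7 FPKM in salt, against 78.6, 69.7 and 62.03 FPKM in water, with overlap. Of the secondary wall genes CESA4 had 2.72, 1.88 and 2.199 FPKM in salt, against 2.38, 1.85 and 2.36 FPKM in water, with overlap, and CESA7 and CESA9 were at most 0.0756 FPKM in any library. With the trend of each library on gene length removed, 6 of the 7 were called lower.

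DNA replication and cell cycle genes lay low in salt. Of 11 tested members 10 were called lower, but 7 were under 1 FPKM in every salt library, so they passed the abundance filter only through water and had to differ. Of the other 4, 3 fell, and at a filter of 5 FPKM 5 of 6 fell. MCM2 to MCM7 form the helicase that opens DNA for replication, PCNA is the clamp that holds the polymerase on it, and the B-type kinases and cyclins act in mitosis. MCM4 (Os01g0544450) had 0.271, 0.478 and 0.585 FPKM in salt, against 17.5, 19.9 and 24.7 FPKM in water, 55 reads over the salt libraries and 2682 over the water libraries, a difference of -3.902 ± 0.17 (SE, limma adjusted p = 2.23e-05). All 6 MCM genes were under 1 FPKM in every salt library and above 3 FPKM in every water library. PCNA (Os02g0805200), the most abundant, kept a higher level, at 79.3, 65.9 and 77.3 FPKM in salt, against 195, 222 and 266 FPKM in water, a difference of -1.597 ± 0.14 (SE, limma adjusted p = 0.000123).

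The mitotic genes spread more within water. CDKB2;1 (Os08g0512600) had 1.02, 1.32 and 0.842 FPKM in salt, against 15.6, 75.3 and 46.4 FPKM in water, a difference of -4.25 ± 0.50 (SE, limma adjusted p = 0.000388). CDKB1;1 had 5.67, 6.43 and 3.88 FPKM in salt, against 15.8, 31.2 and 20.5 FPKM in water, a difference of -1.86 ± 0.26 (SE, limma adjusted p = 0.000882). CYCB2;1 had 0.0424, 0.165 and 0.168 FPKM in salt, against 3.99, 17.5 and 7.84 FPKM in water, a difference of -3.06 ± 0.43 (SE, limma adjusted p = 0.000839). CYCB2;2 had 0 reads in every salt library and 359 over the water libraries, which is at least 114-fold lower with the same floor. Water replicate 2 was the highest and water replicate 1 the lowest in all 4 genes, yet the lowest water library stayed above the highest salt library. CDKA;1, a kinase that cells hold outside division as well, had 9.88, 10.2 and 10.8 FPKM in salt, against 10.9, 8.38 and 8.33 FPKM in water, with overlap and a difference of 0.16 ± 0.14 (SE, limma adjusted p = 0.367).

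**Figure D4:**
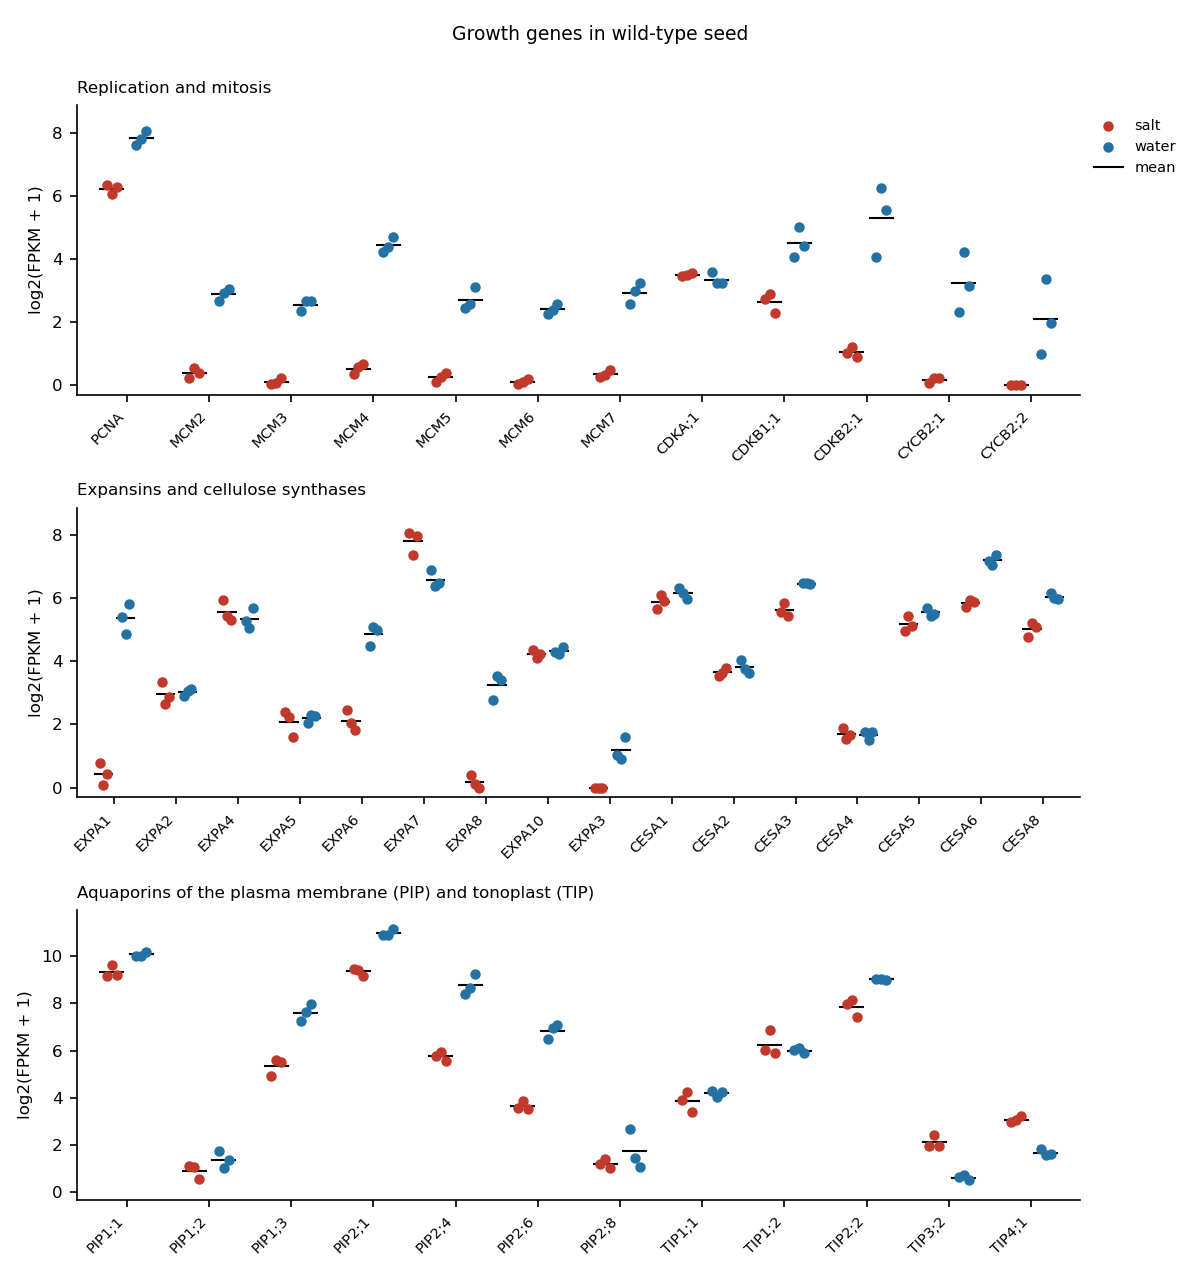
log2(FPKM + 1) of cell cycle genes (top), expansins and cellulose synthases (middle) and aquaporins (bottom) in each salt library (red, left) and water library (blue, right), with the mean as a bar. The MCM genes lie near 0 in salt, EXPA7 is the expansin that lies higher in salt, and PIP2;4 and PIP2;6 fall more than PIP1;1.

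Auxin response genes fell widely. Aux/IAA proteins are short-lived repressors of auxin response factors, and many of their genes are themselves switched on by auxin. Of 24 tested members 17 fell and 3 rose. Of those that fell, 3 had passed the filter only through water, IAA14 among them. The family had differences from -4.65 to 1.41. IAA14 (Os03g0797800) had 0.245, 0.119 and 0.243 FPKM in salt, against 23.9, 24.1 and 42.4 FPKM in water, 10 reads over the salt libraries and 1567 over the water libraries, a difference of -4.65 ± 0.23 (SE, limma adjusted p = 2.94e-05). IAA7 had 2.11, 2.34 and 1.9 FPKM in salt, against 15.5, 17.1 and 17.5 FPKM in water, a difference of -2.51 ± 0.13 (SE, limma adjusted p = 3.03e-05). IAA13 had 1.36, 1.5 and 2.001 FPKM in salt, against 19.1, 17.2 and 22.95 FPKM in water, a difference of -2.98 ± 0.16 (SE, limma adjusted p = 3.13e-05). These 3 genes were low in every salt library, with no overlap, which the rule for naming them required.

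Members of the same family rose beside them. IAA1 (Os01g0178500) had 143, 154 and 159 FPKM in salt, against 67.3, 75.8 and 58.4 FPKM in water, a difference of 1.17 ± 0.12 (SE, limma adjusted p = 0.00022). IAA9 had 21.5, 44.7 and 40.6 FPKM in salt, against 15.6, 10.6 and 10.8 FPKM in water, lowest among the salt libraries in replicate 1, a difference of 1.41 ± 0.28 (SE, limma adjusted p = 0.00431). IAA15 had 89.5, 87.2 and 98.6 FPKM in salt, against 64.3, 75.3 and 66.1 FPKM in water, a difference of 0.42 ± 0.11 (SE, limma adjusted p = 0.0116). IAA19, the most abundant member, had 125, 129 and 139 FPKM in salt, against 109.6, 109 and 114 FPKM in water, without overlap but not called (limma adjusted p = 0.0546). Summed over the 27 members the level was 636, 667 and 702 FPKM in salt, against 903, 1021 and 1005 FPKM in water.

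JAZ proteins repress jasmonate responses and are destroyed when the hormone is bound. Of 9 tested JAZ genes 6 fell and none rose. JAZ7 (Os07g0615200), the most abundant, had 154, 166 and 212 FPKM in salt, against 745, 722 and 846 FPKM in water, a difference of -2.12 ± 0.14 (SE, limma adjusted p = 4.92e-05). JAZ1 (Os04g0653000) had 51.1, 66.02 and 69.8 FPKM in salt, against 327, 287 and 334 FPKM in water, a difference of -2.33 ± 0.14 (SE, limma adjusted p = 3.82e-05). JAZ3 had 33.4, 32.3 and 37.4 FPKM in salt, against 53.6, 62.97 and 63.4 FPKM in water, a smaller difference of -0.78 ± 0.11 (SE, limma adjusted p = 0.000973). JAZ6, JAZ10 and JAZ11 overlapped between the groups, with differences of -0.15, -0.15 and -0.071.

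Type A response regulators damp cytokinin signalling, and cytokinin raises their transcripts. All 6 that were tested fell, at low levels. RR9 passed the filter only through water, and at a filter of 5 FPKM 3 were tested and fell. RR1 had 0.88, 1.23 and 1.1 FPKM in salt, against 3.74, 4.27 and 5.68 FPKM in water, a difference of -1.42 ± 0.18 (SE, limma adjusted p = 0.000522). RR6, the most abundant, had 4.38, 9.11 and 8.75 FPKM in salt, against 14.3, 13.1 and 25.7 FPKM in water, a difference of -1.15 ± 0.32 (SE, limma adjusted p = 0.0181). RR4 had 7.54, 8.08 and 10.98 FPKM in salt, against 14.02, 12.03 and 18.1 FPKM in water, a difference of -0.67 ± 0.19 (SE, limma adjusted p = 0.0198). It lost the call without salt replicate 1, salt replicate 2 or water replicate 3 (adjusted p = 0.0672, 0.0616 and 0.0574). RR10, a near copy of RR9, lost it without salt replicate 2 or salt replicate 3 (adjusted p = 0.0644 and 0.0782), so 4 of the 6 were called without salt replicate 2.

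**Figure D5:**
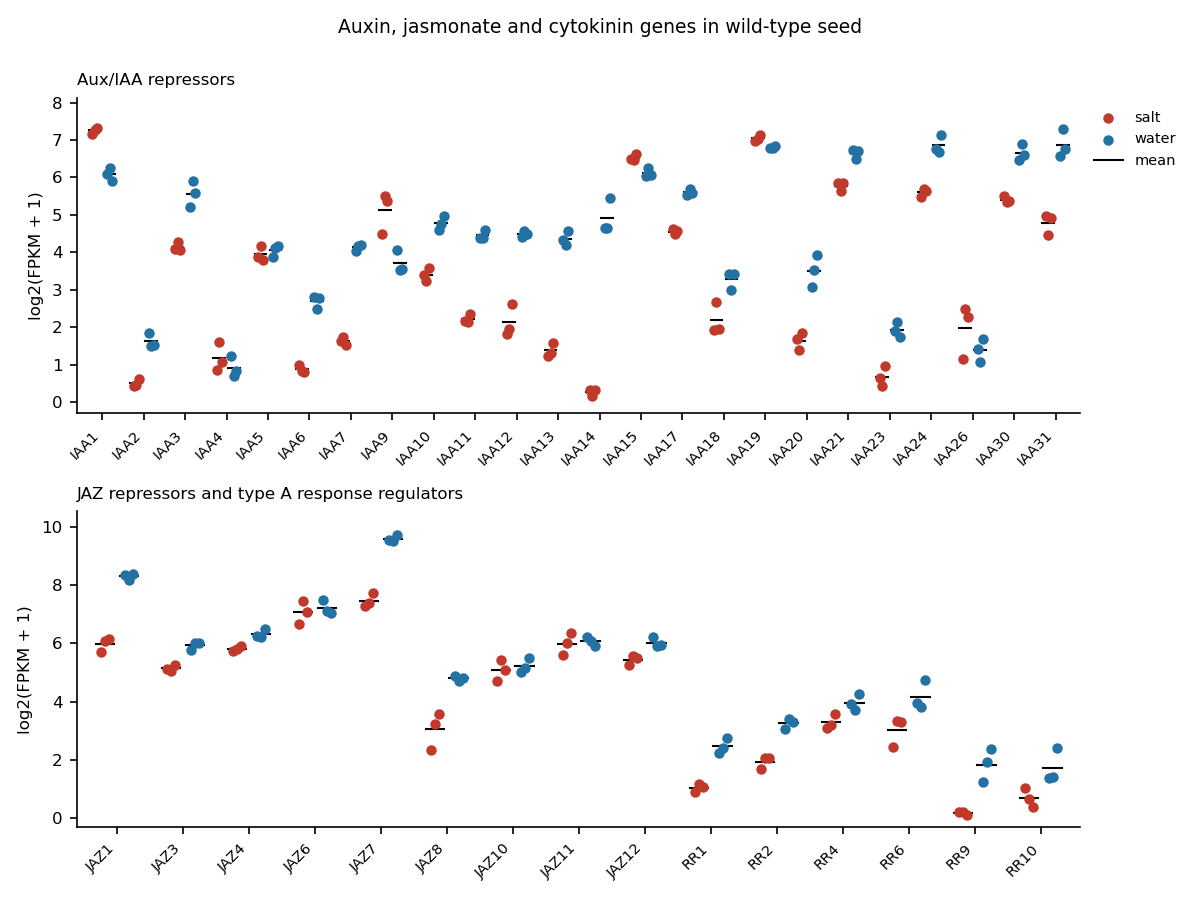
log2(FPKM + 1) of the tested Aux/IAA genes (top) and of the JAZ genes and type A response regulators (bottom) in each salt library (red, left) and water library (blue, right), with the mean as a bar. IAA14 has the widest gap, IAA1, IAA9 and IAA15 lie higher in salt, and no JAZ gene or response regulator was called higher in salt.

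In the ethylene list the first enzyme and a receptor moved in opposite directions. Of 5 tested members 1 rose and 1 fell, 20.0% each way against 29.4% and 28.5% of all tested IDs. The enzyme passed the filter only through salt, and of the other 4 tested members 1 fell and none rose. ACS2 (Os04g0578000), an ACC synthase of the step that limits ethylene synthesis, had 6.87, 22.1 and 18.6 FPKM in salt, against 0.694, 0.341 and 0.499 FPKM in water, lowest among the salt libraries in replicate 1 but without overlap, a difference of 3.34 ± 0.38 (SE, limma adjusted p = 0.000358). The receptor ETR3 (Os02g0820900) had 2.92, 2.94 and 3.56 FPKM in salt, against 10.4, 11.2 and 19.3 FPKM in water, a difference of -1.78 ± 0.23 (SE, limma adjusted p = 0.000596). The receptor ETR2 had 17.44, 21.1 and 21.5 FPKM in salt, against 26.9, 21.1 and 24.1 FPKM in water, the transducer EIN2 had 1.86, 2.65 and 2.06 FPKM in salt, against 2.76, 2.32 and 1.73 FPKM in water, and both overlapped between the groups.

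Among stress transcription factors 5 of 7 tested DREB genes rose and none fell. Of these, 2 had passed the filter only through salt, and at a filter of 5 FPKM 2 of 3 rose. DREB2B (Os05g0346200), the most abundant, had 30.1, 41.6 and 26.8 FPKM in salt, against 19.7, 18.04 and 18.8 FPKM in water, a difference of 0.75 ± 0.17 (SE, limma adjusted p = 0.00674). DREB2A had 7.33, 9.24 and 9.39 FPKM in salt, against 4.01, 4.03 and 2.96 FPKM in water, a difference of 1.05 ± 0.16 (SE, limma adjusted p = 0.00132), although the length implied by its values, 3716 bases, exceeded the 2044 bases of the gene in the RefSeq table, so its ID may cover more than that gene. DREB1H had 2.05, 3.27 and 2.13 FPKM in salt, against 0.43, 0.0883 and 0.444 FPKM in water, a difference of 1.39 ± 0.21 (SE, limma adjusted p = 0.00106). DREB1A overlapped between the groups and lost its call without salt replicate 2 or 3 or water replicate 1 or 3 (adjusted p = 0.139, 0.0972, 0.116 and 0.138).

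Of 4 stress-responsive NAC factors, NAC6 (Os01g0884300), the most abundant, had 102, 164 and 116 FPKM in salt, against 38.3, 46.8 and 28.4 FPKM in water, a difference of 1.72 ± 0.23 (SE, limma adjusted p = 0.000662). NAC5 had 20.7, 23.7 and 21.1 FPKM in salt, against 11.5, 10.8 and 13.8 FPKM in water, a difference of 0.82 ± 0.13 (SE, limma adjusted p = 0.00141). NAC4 had 6.63, 4.88 and 8.08 FPKM in salt, against 17.3, 10.1 and 11.6 FPKM in water, a difference of -0.88 ± 0.23 (SE, limma adjusted p = 0.0144). NAC3 had 25.8, 26.5 and 41.5 FPKM in salt, against 45.7, 45.6 and 38.8 FPKM in water, lower in 2 of 3 salt libraries than in any water library, and was not called (limma adjusted p = 0.0594). It was called lower with a 5 FPKM filter, median-ratio or upper-quartile scaling, all 12 libraries, voom or without salt replicate 3, so the call turned on the settings.

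Osmoprotectant genes rose at single steps. Of 8 tested members 3 rose, 37.5% against 29.4% of all tested IDs, and none fell. P5CS2 (Os01g0848200), an enzyme of the committed step of proline synthesis, had 34.5, 30.96 and 26.4 FPKM in salt, against 9.84, 11.4 and 8.13 FPKM in water, a difference of 1.56 ± 0.16 (SE, limma adjusted p = 0.000212), whereas its paralogue P5CS1 had 44.1, 36.7 and 40.5 FPKM in salt, against 40.9, 40.2 and 31.5 FPKM in water, with overlap. TPP7, a trehalose phosphate phosphatase that aids rice germination under water, had 16.92, 24.00 and 19.6 FPKM in salt, against 8.89, 11.1 and 5.14 FPKM in water, a difference of 1.22 ± 0.26 (SE, limma adjusted p = 0.00543). RINO1 (Os03g0192700), which makes inositol phosphate, had 323, 225 and 385 FPKM in salt, against 141, 101 and 123 FPKM in water, a difference of 1.32 ± 0.21 (SE, limma adjusted p = 0.00157). The betaine aldehyde dehydrogenases BADH1 and BADH2 and the phosphatases TPP1 and TPP2 were not called, and their groups overlapped.

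Of 13 tested antioxidant enzymes 5 rose and 5 fell, 38.5% each way against 29.4% and 28.5% of all tested IDs. Of those that rose, 1 passed the filter only through salt, and of the other 12 tested 4 rose and 5 fell. Both cytosolic ascorbate peroxidases, which remove hydrogen peroxide, fell. APX2 (Os07g0694700) had 395, 397 and 446 FPKM in salt, against 999, 1272 and 1116 FPKM in water, a difference of -1.45 ± 0.12 (SE, limma adjusted p = 0.000102). APX1, the most abundant, had 683, 652 and 618 FPKM in salt, against 923, 1101 and 1054 FPKM in water, a difference of -0.65 ± 0.11 (SE, limma adjusted p = 0.00167). APX4 had 79.5, 70.00 and 72.02 FPKM in salt, against 92.3, 87.2 and 86.3 FPKM in water, a difference of -0.26 ± 0.095 (SE, limma adjusted p = 0.0476), and lost the call in most other fits, among them the replicate block (adjusted p = 0.0757) and each that left out a library other than salt replicate 1 (adjusted p = 0.0704 to 0.133). APX7 rose, at 12.7, 15.2 and 11.1 FPKM in salt, against 9.01, 7.69 and 7.53 FPKM in water, a difference of 0.62 ± 0.15 (SE, limma adjusted p = 0.00924). The copper and zinc superoxide dismutases moved apart, SODCC1 at 152, 165 and 158 FPKM in salt, against 309, 362 and 345 FPKM in water and SODCC2 (Os07g0665200) at 925, 857 and 754 FPKM in salt, against 472, 550.4 and 492 FPKM in water, with differences of -1.09 ± 0.098 (SE, limma adjusted p = 0.000135) and 0.74 ± 0.12 (SE, limma adjusted p = 0.00139). Catalase CATB had 151, 149 and 139 FPKM in salt, against 114, 103 and 86.6 FPKM in water, a difference of 0.54 ± 0.12 (SE, limma adjusted p = 0.00676). Manganese superoxide dismutase SODA had 726, 621 and 634 FPKM in salt, against 649, 715 and 641 FPKM in water, with overlap.

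Genes of photosynthesis and chlorophyll synthesis stood lower in salt. CAB1R (Os09g0346500), a light-harvesting protein of the chloroplast, had 1.401, 2.78 and 2.89 FPKM in salt, against 57.5, 97.7 and 116 FPKM in water, a 38.3-fold lower mean FPKM and a difference of -4.74 ± 0.29 (SE, limma adjusted p = 4.23e-05). Of the chlorophyll synthesis genes, the protochlorophyllide reductase PORB had 6.86, 6.17 and 6.62 FPKM in salt, against 8.84, 11.05 and 13.2 FPKM in water, a difference of -0.66 ± 0.16 (SE, limma adjusted p = 0.00977). CHLI, a subunit of magnesium chelatase, had 5.74, 4.67 and 4.35 FPKM in salt, against 11.2, 9.81 and 13.9 FPKM in water, a difference of -1.09 ± 0.17 (SE, limma adjusted p = 0.00124). The other subunits CHLH and CHLD were not called, with differences of -0.24 and -0.24. GLK1, a factor that drives chloroplast development, had 0.147, 0.429 and 0.328 FPKM in salt, against 1.796, 1.91 and 4.34 FPKM in water, a difference of -1.44 ± 0.27 (SE, limma adjusted p = 0.00318). Of 8 tested members 6 fell and none rose, and 3 of them were under 1 FPKM in every salt library and passed only through water. Of the other 5, 3 fell, and at a filter of 5 FPKM 3 were tested and fell.

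Nitrogen assimilation genes mostly fell. Cytosolic glutamine synthetase GS1;1 (Os02g0735200), the most abundant, had 76.7, 77.3 and 81.01 FPKM in salt, against 169.5, 149 and 159 FPKM in water, a difference of -1.01 ± 0.092 (SE, limma adjusted p = 0.000144). GS1;2 had 1.05, 1.44 and 0.9 FPKM in salt, against 7.22, 6.601 and 16.2 FPKM in water, highest in water replicate 3, a difference of -2.27 ± 0.31 (SE, limma adjusted p = 0.000793). Plastid GS2 had 10.7, 8.02 and 8.77 FPKM in salt, against 12.7, 13.4 and 13.9 FPKM in water, a difference of -0.50 ± 0.14 (SE, limma adjusted p = 0.0154). It lost the call without salt replicate 3 (adjusted p = 0.0532). FD-GOGAT (Os07g0658400), which takes the product of GS2 on to glutamate, moved the other way, at 18.2, 26.00 and 23.6 FPKM in salt, against 9.76, 6.85 and 4.53 FPKM in water, a difference of 1.59 ± 0.25 (SE, limma adjusted p = 0.0015).

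The response of the WT seed was set beside that of osmft1 seed by an interaction test over all 12 libraries. It called 2872 of 22017 IDs (13.0%), 6.92% with a more positive and 6.12% with a more negative salt difference in osmft1, and 23 and 14 of 234 tested members. Of the Aux/IAA genes 7 of 25 were called and of the JAZ genes 7 of 10, all with a more positive difference in osmft1, and no LEA, PP2C or heat shock gene was called. Only 13 members were also called whichever of the 12 libraries was left out, and the count over all IDs ran from 752 to 4202 in those fits.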

How the data were processed

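RNA was measured in 3 salt and 3 water libraries of Zhonghua 11 seed, and for 1 test in 6 more of osmft1. Per the submitters' processing notes, the tools were Bowtie2 2.2.3, HTSeq 0.6.0 and HISAT2 2.1.0 and the build IRGSP-1.0, without a stated role or order. For the strand setting and annotation release the sources used here give nothing, so reads of antisense or overlapping genes cannot be told apart.

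The authors deposited 1 value per gene ID and library, taken here as FPKM, since no header states the unit. Whole reads and library totals were recovered from the steps between low values, all within 0.003 of a whole read, and the recovery was tested on simulated data. They served for depth, counts of reads and voom. Read counts and floors cover counting error only.

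An ID was tested if 3 or more of the 6 libraries had 1 FPKM or more. Values were put on a log2 scale after adding a pseudocount of 1 and fitted in R 4.3.3 by limma 3.58.1 (1 mean per group, variance trend), adjusted by Benjamini-Hochberg over all tested IDs and called at an adjusted p under 0.05. The interaction was fitted over all 12 libraries. The fit was tested on simulated data. Tables were made with pandas 2.3.3 and plots with matplotlib 3.10.9 in Python 3.11.15.

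The members and lists were chosen with earlier results of these data known. Of 359 name and locus pairs, 67 names were not in the RefSeq table (assembly ASM3414082v1), 7 loci were not among the IDs, 1 lay on another chromosome and 4 in another place, and 280 were kept. Requiring the name in the table and the order along the chromosome was decided after the data were seen. Named were, in each family, the most abundant member and up to 3 called members a direction with the smallest adjusted p, at least 10 FPKM in the higher group and no overlap (failing that, 1 FPKM), and genes at defined pathway steps. AGPS2, ISA1, APX4, WRKY76 and other members given for a lost or missed call were named after their values were seen. Replicates of a group differed by more than sampling noise (chi-square of recovered reads per degree of freedom 10.8 to 25.7).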

Additional observations from a re-analysis of the deposited data

Results flagged for a closer look

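The salt difference itself differed between osmft1 and WT, by the interaction term in limma, for 2872 IDs and for 23 and 14 members with a more positive and a more negative salt difference in osmft1. The values below are those interaction differences in log2(FPKM + 1), osmft1 minus WT. The MFT1 locus was too low to check the genotype labels.

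Among the glutelins they were -2.47 for GluA1, -2.502 for GluA2, -1.37 for GluA3, -2.13 for GluB2 and -2.22 for GluB5. GluA1 averaged 16.97 FPKM in osmft1 salt and 55.2 FPKM in osmft1 water, against 7.41 FPKM in WT salt and 3.29 FPKM in WT water, so the salt difference had opposite signs in the 2 genotypes. LHY, a morning factor of the circadian clock, had -1.78, RAmy3D -1.17, SUT1 -1.097, SAPK10 -0.78, KS1 -0.69, CIPK24 -0.66, CATB -0.68, APX3 -1.97 and FD-GOGAT -1.37.

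Among genes that fell in WT salt, the fall was smaller in osmft1 for the auxin repressors IAA7 (1.45), IAA10 (0.72), IAA14 (2.59), IAA17 (0.44), IAA20 (1.43), IAA30 (0.77) and IAA31 (1.57). The same held for JAZ1 (1.02), JAZ7 (0.97), JAZ8 (1.61), CAB1R (2.52), PIP2;4 (1.72), EXPA6 (2.03), MCM4 (1.38), RR1 (1.304) and SODCC1 (0.60). JAZ12 (1.005) fell in WT and had a salt difference of 0.42 in osmft1. JAZ2 (1.29), JAZ10 (1.803), JAZ11 (1.29), EXPA5 (1.32), NAC3 (1.03) and WRKY71 (0.61) also had a more positive salt difference in osmft1. CAB1R averaged 11.7 FPKM in osmft1 salt and 58.9 FPKM in osmft1 water, against 2.36 FPKM in WT salt and 90.3 FPKM in WT water.

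The members called in every fit that left out 1 of the 12 libraries were GluA1, GluA2, GluB2, GluB5, EXPA6, JAZ7, JAZ10, JAZ12, CAB1R, LHY, IAA7, IAA30 and IAA31.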

How the results depend on the processing

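No called member changed direction under any setting that tested it. Of 154 called members 28 were not tested at a filter of 5 FPKM and 2 without the 50 most abundant IDs. Of the 124 tested under every other pseudocount, filter, scaling, length correction, replicate block, 12-library fit, voom and no variance trend, 119 kept the call, and 138 of 154 kept it whichever library was left out. The count of called IDs was 5323 when a 2-fold change was also required, 2485 higher and 2838 lower. Left-out libraries gave 10221 to 11405 called IDs, 5056 to 5962 higher and 5097 to 5443 lower, and 64 to 75 members that rose and 78 to 81 that fell. The share of called IDs that were higher turned from 50.8% to 49% with median-ratio scaling and 48.4% with upper-quartile scaling, and was 56.7% without the 50 most abundant IDs, which moved the median difference of all IDs to 0.13. The correlation of deviations of same-numbered salt and water libraries was -0.011, 0.016 and -0.001. No shared deviation was thus seen, but this cannot decide whether same-numbered libraries came from a shared seed lot, which the labels do not state. With a replicate block 10987 IDs were called, 71 members rose and 80 fell. The interaction count was 794 with a replicate block within genotype, and 752 to 4202 with 1 of 12 libraries left out. Depth limits genes with a few reads in all libraries, such as NCED3 and MFT1.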

Other observations

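Of 8 tested clock genes 3 rose and 1 fell, 37.5% and 12.5%, against 29.4% and 28.5% of all tested IDs. LUX (Os01g0971800), a factor of the evening complex, had 150.3, 153 and 224 FPKM in salt, against 60.9, 54.1 and 58.6 FPKM in water, a difference of 1.56 ± 0.17 (SE, limma adjusted p = 0.000256). Its partner ELF3 had 4.09, 7.39 and 5.32 FPKM in salt, against 2.35, 2.35 and 2.02 FPKM in water, a difference of 1.00 ± 0.20 (SE, limma adjusted p = 0.00432), and the pseudo-response regulator PRR95 had 18.00, 17.45 and 18.2 FPKM in salt, against 6.58, 6.701 and 7.26 FPKM in water, a difference of 1.27 ± 0.11 (SE, limma adjusted p = 0.00011). No library of the salt group overlapped the water group in these 3 genes. GI, an evening protein, had 8.05, 9.33 and 10.4 FPKM in salt, against 11.95, 14.9 and 12.2 FPKM in water, a difference of -0.45 ± 0.14 (SE, limma adjusted p = 0.0306), and lost the call without salt replicate 1, salt replicate 2 or water replicate 2 (adjusted p = 0.0976, 0.065 and 0.107). LHY and TOC1 were not called, with differences of 0.50 and 0.20. The labels give no hour of sampling, so the phase of the libraries cannot be compared.

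Of the WRKY and defence genes 4 of 5 tested rose and 1 fell. WRKY24 (Os01g0826400), a repressor of hormone responses in rice aleurone cells, had 45.3, 56.8 and 45.7 FPKM in salt, against 3.995, 4.17 and 3.01 FPKM in water, a 13.2-fold ratio of mean FPKM and a difference of 3.41 ± 0.15 (SE, limma adjusted p = 2.27e-05). WRKY62 (Os09g0417800), a regulator of defence, had 8.31, 22.2 and 11.6 FPKM in salt, against 0.378, 0.34 and 0.0977 FPKM in water, a difference of 3.46 ± 0.32 (SE, limma adjusted p = 0.000154). WRKY71, which represses gibberellin responses in the aleurone, had 58.4, 53.7 and 70.6 FPKM in salt, against 36.1, 27.4 and 30.8 FPKM in water, a difference of 0.93 ± 0.15 (SE, limma adjusted p = 0.00142). In all 3 genes each salt library lay above each water library, which the rule for naming them required. WRKY62 passed the filter only through salt. WRKY76 had 2.93, 3.23 and 5.87 FPKM in salt, against 2.21, 2.08 and 0.978 FPKM in water, a difference of 0.85 ± 0.28 (SE, limma adjusted p = 0.0338). It lost the call without a filter, with a replicate block and without salt replicate 2 or 3 or water replicate 2 or 3 (adjusted p = 0.0709, 0.0744, 0.0518, 0.0969, 0.0501 and 0.0964). The defence protein PBZ1 had 530.0, 301 and 502 FPKM in salt, against 622, 1120.5 and 721 FPKM in water, a difference of -0.88 ± 0.28 (SE, limma adjusted p = 0.0297), and lost the call without salt replicate 2, water replicate 2 or water replicate 3 (adjusted p = 0.0778, 0.0811 and 0.0561). Of the iron genes YSL2 (Os02g0649900), a transporter of iron bound to nicotianamine, had 96.8, 57.98 and 79.3 FPKM in salt, against 24.2, 17.7 and 14.6 FPKM in water, a difference of 1.99 ± 0.23 (SE, limma adjusted p = 0.000389). NAS3, which makes nicotianamine, had 28.2, 32.00 and 38.3 FPKM in salt, against 44.4, 48.3 and 35.2 FPKM in water, with overlap, and the other 4 were at most 0.513 FPKM in any library.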
